A study of Mus musculus with 4 samples.

Results

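Collagen chain genes were read in RNA sequencing of airway epithelial cells from mouse lung. Members were the rows whose symbol has the form Col, a number, a and a number, without Col17a1, which encodes a hemidesmosome protein of basal cells. They came to 43 of 25124 listed genes. Of these, 33 reached a mean of 25.8 normalised reads, the floor for testing, set at 1e-06 of the mean column total, and were tested among 13810 genes. The cells had been sorted by flow cytometry (FACS) from lungs of wild-type C57BL/6 mice, all exposed to allergen from house dust mites (HDM). One group was given an SCD1 inhibitor and the other its vehicle dimethyl sulfoxide (DMSO), with 2 samples in each; SCD1 is a desaturase that introduces a double bond into saturated fatty acids. Mice without HDM were not analysed here. The identity and dose of the inhibitor, the age of the mice and the number of mice per sample are not given. Libraries held 24591122 to 27013663 reads assigned to genes. The values are reads per gene divided by the size factor of the library, called normalised reads below.

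Collagens are matrix proteins built from trimers of chains that wind into a triple helix. Fibrillar collagens, mainly types I, III and V, form the banded fibrils of connective tissue and in lung are made chiefly by fibroblasts, smooth muscle and related mesenchymal cells. Type IV collagen forms the sheet-like network of basement membranes on which epithelium and endothelium rest, and epithelial, endothelial and mesenchymal cells can all make it. Thickening of the collagen layer below the airway epithelium is a known feature of allergic airway disease.

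Which cells the collagen reads came from was not tested, and the marker values below only describe the libraries. Of the 12 fibroblast markers examined, Tcf21 and Lum were at 0 in every library. Pdgfra, a receptor of lung fibroblasts, reached at most 94.4 normalised reads and was at 0 in DMSO replicate 1. Decorin (Dcn), a proteoglycan of fibroblasts, had 266 and 145 reads with DMSO and 283 and 335 with the inhibitor, lowest in DMSO replicate 2. Pi16 of the same list had 153 and 130 reads with DMSO and 49.7 and 89.2 with the inhibitor, highest in DMSO replicate 1. Pdgfrb, a receptor of fibroblasts and mural cells, had 24.4 and 278 reads with DMSO and 287 and 334 with the inhibitor, lowest in DMSO replicate 1 as Col1a1 was. Npnt (1138 to 1543 reads) and Ces1d (28940.5 to 35899) were the most abundant genes of the list. The smooth muscle genes Myh11 (695.9 to 1629 reads), Acta2 (642 to 1315) and Tagln (337 to 776) and the endothelial genes Kdr (876 to 1765), Cdh5 (234 to 1672) and Pecam1 (195 to 1215) were present in every library. Epithelial markers summed to 151925 to 165163 reads and differed by 1.09-fold between the highest and the lowest library. In bulk RNA, fewer cells of a type and less RNA per cell cannot be told apart.

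Short stretches just before the start of 3 transcription units show the genes that the results below turn on. They are Col3a1, the most abundant fibrillar chain, Col8a2, the most abundant chain of all, and the stretch between the head-to-head genes Col4a4 and Col4a3. They are RefSeq sequences of build GRCm38.p6, 5′ to 3′ on the strand of Col3a1, Col8a2 and Col4a4, with capitals for matches to the motifs TATAAA and CCAAT on either strand. Col3a1 (chr1:45311388-45311537, plus strand) held 1 TATAAA, at 117 to 112 bases before the start, while the stretches at Col8a2 (chr4:126286643-126286792, plus strand) and Col4a4 (chr1:82586850-82586920, minus strand) held neither motif.
Col3a1: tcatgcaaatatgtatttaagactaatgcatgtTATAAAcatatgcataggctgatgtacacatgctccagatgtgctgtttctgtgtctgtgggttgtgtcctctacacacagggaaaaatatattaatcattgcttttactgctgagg
Col8a2: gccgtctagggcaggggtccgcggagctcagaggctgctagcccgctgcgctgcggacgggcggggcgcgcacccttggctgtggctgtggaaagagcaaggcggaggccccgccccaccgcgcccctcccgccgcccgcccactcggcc
Col4a4 to Col4a3: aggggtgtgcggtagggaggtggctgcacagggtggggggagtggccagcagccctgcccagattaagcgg
Promoter windows were found for 34 of the 43 chains (37 windows). In the 250 bases before the start, TATAAA or its reverse complement stood in 10.8% of the collagen windows and in 12.4% of all 32851 windows, and CCAAT or its reverse complement in 32.4% and 33.8%. A match is a description of the letters and not a shown binding site.

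Per kilobase of exon, Col8a2 was by far the most abundant chain, with 54.3% of the summed level of all 43 chains. Col8a2 encodes a chain of type VIII collagen, a short network-forming collagen known from the basement membrane of the corneal endothelium. It had 3464 and 3765 normalised reads per kilobase with DMSO and 3049 and 3637 with the inhibitor, rank 224 among 13620 tested genes with a known length. The level was alike in the 4 libraries and the groups overlapped. The other chain of type VIII, Col8a1, was far lower, and the ratio of Col8a2 to Col8a1 per kilobase was 141 and 129 with DMSO and 84.5 and 57.9 with the inhibitor. The 6 type IV chains together made up 25.9% of the collagen level per kilobase, led by Col4a1 (rank 2227) and Col4a2 (rank 2239), while the 11 fibrillar chains made up 4.15%. Col3a1, Col1a1 and Col1a2 ranked 9276, 9796 and 11067 on this scale, so even the most abundant fibrillar chains lay in the lower part of the tested genes. The transmembrane collagen Col23a1 (rank 6049) and the little-studied Col26a1 (rank 9622) and Col20a1 (rank 9845) were also among the chains that stood above or close to Col1a1.

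**Figure D1:**
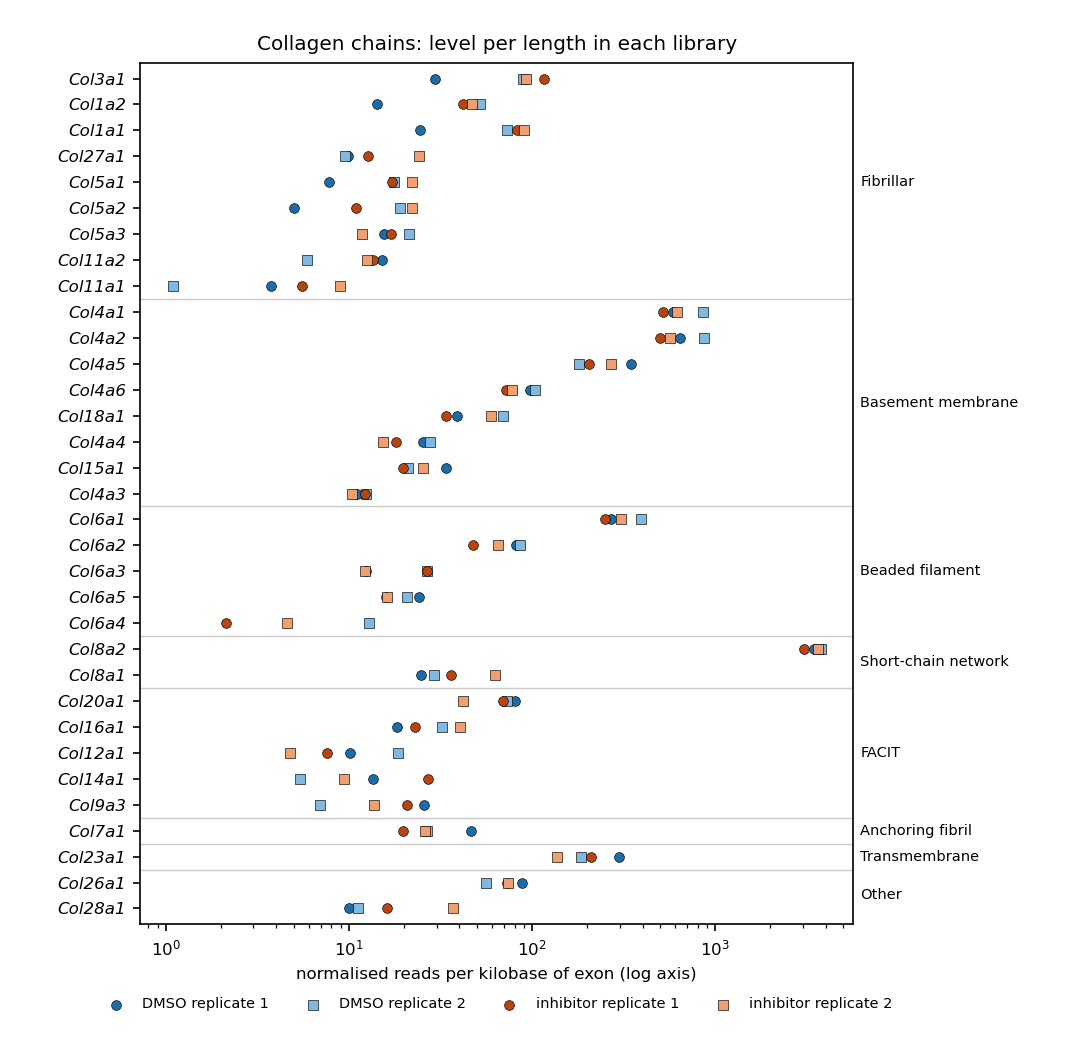
Level of each tested collagen chain in the 4 libraries, as normalised reads per kilobase of exon on a log axis, with chains grouped by class and 1 point for each library. Col8a2 stands to the right of all other chains at 3049 to 3765, and DMSO replicate 1 is the leftmost point for Col3a1, Col1a1 and Col1a2. Col6a4 had 0 in DMSO replicate 1, which has no point on the log axis.

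The main comparison set the inhibitor group against the DMSO group, chain by chain. With limma fitted over all 13810 genes, 0 of 33 chains had a Benjamini-Hochberg adjusted p under 0.05, where 1.79% of all genes had one (1.36% higher and 0.427% lower with the inhibitor). The smallest adjusted p was 0.144. At an unadjusted p under 0.05, 5 chains stood out (Col1a1 and Col3a1 higher, Col4a2, Col6a2 and Col12a1 lower with the inhibitor), where 14.1% of all genes did (8.16% higher, 5.92% lower). edgeR on the recovered reads called 0 chains (3 at an unadjusted p under 0.05, where 12.2% of its genes had one), where 0.0654% of its genes were called (0.0458% higher, 0.0196% lower). DESeq2 called 1, Col4a2 (adjusted p = 0.0455; 4 chains at an unadjusted p under 0.05, where 13.1% of its genes had one), where 3.97% of its genes were called (2.74% higher, 1.23% lower); it gave no adjusted p for 21 chains with low counts. The groups did not overlap in 14 of the 33 chains, 6 higher and 8 lower with the inhibitor, where 44.9% of all genes did not overlap (22.7% higher, 22.2% lower). These shares of the chains are near or below those of the whole table. Without DMSO replicate 1, limma called 2 chains (Col4a1 and Col4a2, lower), where 5.76% of all genes were called, and without DMSO replicate 2 it called 3 (Col1a1, Col1a2 and Col3a1, higher), where 2.57% were. Without inhibitor replicate 1 or 2 it called 0 chains, where 0.0362% and 0.109% of all genes were called. With the replicate number as a block it called 2 chains (Col3a1 higher, Col4a2 lower), where 4.88% were, and without the intensity trend 0 chains and 0% of genes (3 chains at an unadjusted p under 0.05, where 10.3% of all genes had one). A p that misses the threshold does not show that a chain was the same in both groups, and the intervals below give the sizes the data allow.

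**Figure D2:**
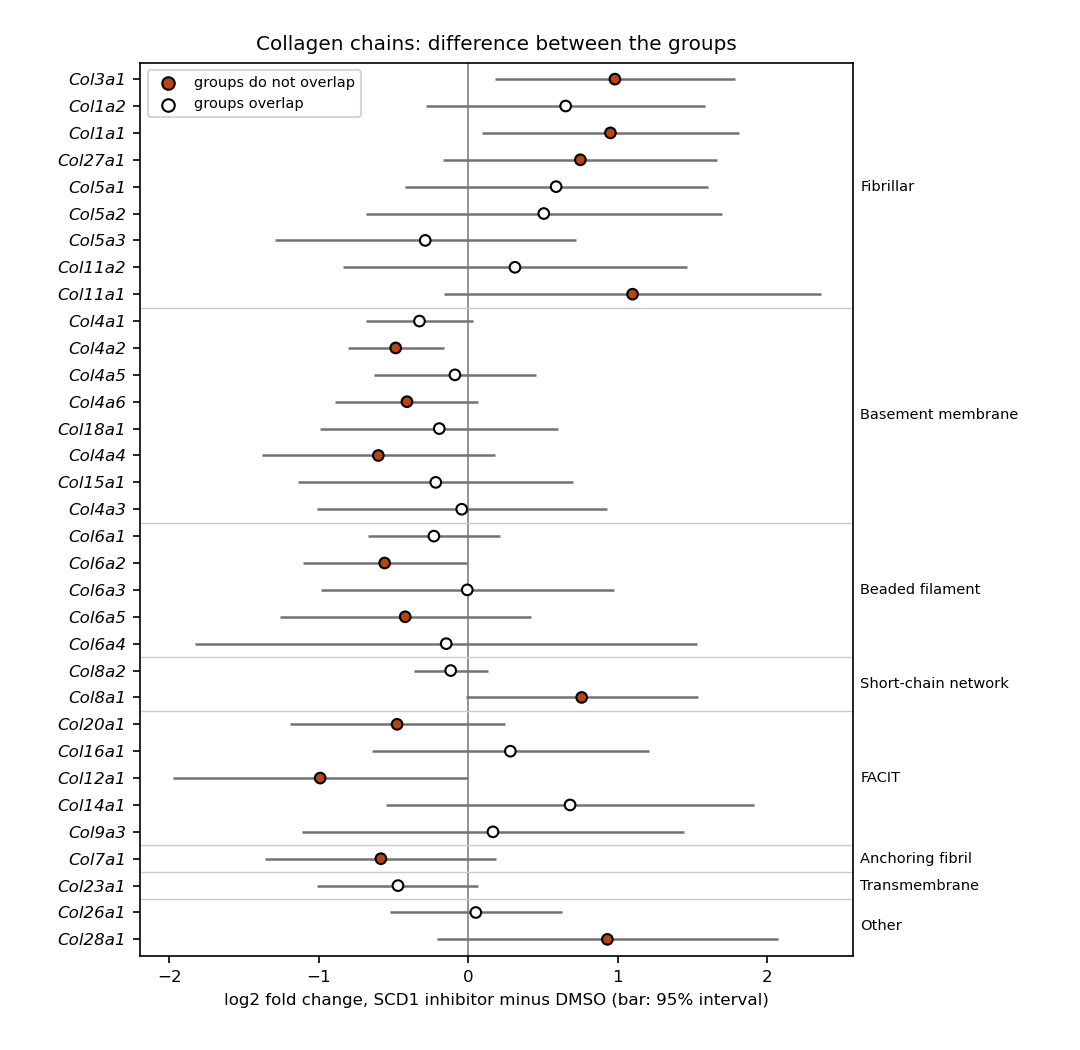
Log2 fold change of each tested chain, inhibitor minus DMSO, from limma on log2(value + 25.8), with its 95% interval as a bar; filled points are chains whose groups did not overlap (n = 2 each). Of the 9 fibrillar chains 8 lie to the right of 0 and all 8 basement membrane chains lie to the left, with most intervals crossing 0.

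Fibrillar chains had higher values with the inhibitor in 8 of 9 cases, where 7000 of all 13810 genes had higher values. In types I and III the gap lay mainly in 1 DMSO library. Col3a1, which forms the fine fibrils of lung and vessel walls (chromosome 1, 45311538 to 45349706, plus strand, mm10), had 288 and 871 normalised reads with DMSO and 1143 and 913 with the inhibitor. DMSO replicate 1 was low and the other 3 libraries lay together, the inhibitor libraries just above DMSO replicate 2. The log2 fold change of Col3a1 was 0.98 ± 0.37 (SE; 95% interval 0.18 to 1.78; limma adjusted p = 0.246). It was 0.22 without DMSO replicate 1 (adjusted p = 0.639) and 1.74 without DMSO replicate 2 (adjusted p = 0.00150).

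The type I chains, which form the bulk of fibrillar collagen in most tissues, shared the lowest library with Col3a1. Col1a1 (chromosome 11, 94936224 to 94953042, plus strand) had 160 and 477 reads with DMSO and 543 and 589 with the inhibitor. Col1a2 (chromosome 6, 4504814 to 4541544, plus strand) had 176 and 640 reads with DMSO and 519 and 585 with the inhibitor. For Col1a1 the groups did not overlap, while for Col1a2 DMSO replicate 2 was the highest of all 4. The log2 fold changes were 0.95 ± 0.40 for Col1a1 (limma adjusted p = 0.299) and 0.65 ± 0.43 for Col1a2 (adjusted p = 0.548; SE, n = 2 each). Without DMSO replicate 1 they were 0.23 and -0.21, and without DMSO replicate 2 they were 1.67 (adjusted p = 0.0152) and 1.51 (adjusted p = 0.0269). Per kilobase, the ratio of Col1a1 to Col1a2 lay between 1.41 and 1.98 in the 4 libraries.

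Type V chains, which join type I fibrils and limit their width, had means of 14.2 to 16.3 normalised reads per kilobase, below the 38.6 of Col1a2. Col5a1 had 66.3 and 149.6 reads with DMSO and 146 and 187 with the inhibitor, and Col5a2 had 47.8 and 181 against 104 and 211. Both had their lowest value in DMSO replicate 1, and for both the groups overlapped (log2 fold changes 0.59 and 0.51, limma adjusted p = 0.631 and 0.742). Col5a2 lies next to Col3a1 on chromosome 1 (45374321 to 45503282, minus strand). Col5a3, the remaining type V gene, had 105 and 144 reads with DMSO and 116 and 79.7 with the inhibitor, and was the 1 fibrillar chain with a negative log2 fold change (-0.29).

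The other tested fibrillar chains did not follow DMSO replicate 1 in this way. Col27a1, a fibrillar chain known from cartilage, had 129 and 123 reads with DMSO and 165 and 315 with the inhibitor, and its log2 fold change of 0.75 ± 0.42 (SE, limma adjusted p = 0.467) came mostly from inhibitor replicate 2. Col11a1, a chain of the minor fibrillar type XI, was low, with 47.8 and 13.9 reads against 70.7 and 113, and had the highest log2 fold change of all chains, 1.10 ± 0.58 (adjusted p = 0.432). Col11a2 had 103 and 40.6 reads against 92.7 and 86.0, and its groups overlapped. The values of these genes are small, and a gene at the floor carries a counting error of 19.7% in 1 library.

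In Col1a1, Col1a2, Col3a1, Col5a1, Col5a2, Col5a3 and Col11a2 the DMSO replicates differed by more than the groups did, while in Col27a1 and Col11a1 they differed by less. The inhibitor replicates of Col27a1 differed by 0.83 on the log2(value + 25.8) scale, more than its group difference of 0.75. Between the 2 DMSO libraries, replicate 2 over replicate 1, the ratio was 2.98 for Col1a1 (95% exact counting interval 2.49 to 3.58) and 3.63 for Col1a2 (3.07 to 4.30). It was 3.03 for Col3a1 (2.65 to 3.47) and 3.80 for Col5a2 (2.76 to 5.32). In the inhibitor pair the same ratio was 1.08 for Col1a1 (0.963 to 1.22), 1.13 for Col1a2 (1.0006 to 1.27) and 0.799 for Col3a1 (0.731 to 0.872), but 2.02 for Col5a2 (1.60 to 2.58). The inhibitor libraries thus lay close to each other in the type I and III chains, and apart in Col5a2. These intervals cover counting error in 2 libraries only and say nothing of the conditions. On the log2(value + 25.8) scale, DMSO replicate 2 exceeded replicate 1 by over 1 in 5 of the 33 chains (Col1a1, Col1a2, Col3a1, Col5a2 and Col6a4), where 4.74% of all genes did, and replicate 1 exceeded replicate 2 by over 1 in 1 chain (Col9a3), where 3.16% did. In the inhibitor pair a difference over 1 in size was seen in 2 chains (Col6a3 and Col14a1), where 4.95% of all genes had one, against 7.9% in the DMSO pair.

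Basement membrane chains had lower values with the inhibitor in 8 of 8 cases, where 6810 of all 13810 genes had lower values. In 3 of the 8 the groups did not overlap, where 22.2% of all genes were lower without overlap. Col4a1 and Col4a2 encode the chains of the most widespread type IV network and start head to head on chromosome 8, with annotated 5′ ends that overlap by 22 bases (Col4a1 11198423 to 11312826, minus strand; Col4a2 11312805 to 11449287, plus strand). Col4a1 had 4361 and 6429 normalised reads with DMSO and 3851 and 4626 with the inhibitor. Col4a2 had 4236 and 5735 reads with DMSO and 3318 and 3725 with the inhibitor. DMSO replicate 2 was the highest library for both, and DMSO replicate 1 lay below inhibitor replicate 2 for Col4a1 and above both inhibitor libraries for Col4a2.

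Col4a2 had the smallest p of all chains and a log2 difference of -0.48 ± 0.15 (SE; 95% interval -0.81 to -0.16; limma adjusted p = 0.144), 1.40-fold lower. For Col4a1 it was -0.33 ± 0.17 (95% interval -0.68 to 0.033; adjusted p = 0.411). Without DMSO replicate 1 both passed limma's test, at -0.70 (adjusted p = 0.00231) and -0.60 (adjusted p = 0.00963). Without DMSO replicate 2 they had -0.27 and -0.047 (adjusted p = 0.325 and 0.902). The ratio of Col4a1 to Col4a2 per kilobase was near 1 in every library, from 0.913 to 1.10.

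The chains of the other type IV networks, which are found in specialised basement membranes, were lower in level. Col4a5 (chromosome X) had 2336 and 1204 reads with DMSO and 1380 and 1803 with the inhibitor, so that the DMSO libraries enclosed the inhibitor libraries (log2 fold change -0.088, limma adjusted p = 0.913). Its neighbour Col4a6 had 775 and 828 reads with DMSO and 576 and 618 with the inhibitor. Replicates of Col4a6 lay close together and the groups did not overlap, and the log2 difference of -0.41 ± 0.22 (SE; limma adjusted p = 0.445) lay between -0.46 and -0.36 without each library in turn.

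Col4a4 and Col4a3 start 71 bases apart on chromosome 1, the stretch printed above. Col4a4 had 267 and 293 reads with DMSO and 191 and 162 with the inhibitor, and differed by -0.60 ± 0.36 on the log2 scale (SE; limma adjusted p = 0.495). Col4a3 had 110 and 123 against 122 and 103, a log2 fold change of -0.043 ± 0.45. The ratio of Col4a3 to Col4a4 per kilobase was 0.439 and 0.446 with DMSO and 0.681 and 0.678 with the inhibitor, so that it did not overlap between groups. This ratio was singled out after its values were seen and was not tested, and 563 exon bases of Col4a3 are shared with a noncoding gene on the other strand. The multiplexins Col18a1, whose fragment is endostatin, and Col15a1 overlapped between groups. Col18a1 had 272 and 487 reads against 237 and 419, and Col15a1 had 213 and 133 against 124 and 162 (limma adjusted p = 0.870 and 0.875). Alveolar type 1 markers summed to 18663 and 19375 reads with DMSO and 16615 and 16555 with the inhibitor, and 1 of 5 tested (Aqp5) was called lower. Alveolar type 2 markers summed to 224012 and 267825 against 172828 and 150075 reads, and 3 of 4 (Sftpc, Sftpb and Abca3) were called lower, where 0.427% of all genes were. Lower calls were not limited to alveolar markers. Club cell markers summed to 439242 and 350158 against 414742 and 228410 reads, and 2 of 3 (Scgb3a2 and Cyp2f2) were called lower, against the same share of 0.427%. Of 4 ciliated cell markers 1 (Ccdc39) was called higher, where 1.36% of all genes were, and 0 were called lower. The part of these cell types in the type IV values was not tested.

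Set side by side, the median log2 difference between groups was 0.65 for the 9 fibrillar chains and -0.27 for the 8 basement membrane chains, against 0.0056 over all genes tested. The gap between the classes was 0.92, and it was 0.74 to 1.37 without each library in turn. Relative to each chain's own mean, the median of the fibrillar chains was -0.76 and 0.24 in the DMSO libraries and 0.20 and 0.45 in the inhibitor libraries. For the basement membrane chains these medians were 0.092 and 0.31 with DMSO and -0.26 and -0.077 with the inhibitor. The fibrillar median of DMSO replicate 1 stood apart, whereas the basement membrane medians were positive in both DMSO libraries and negative in both inhibitor libraries. Without DMSO replicate 1 the fibrillar median was 0.22 and the basement membrane median -0.52. As sums of normalised reads, types I, III and V over type IV gave 0.0698 and 0.169 with DMSO and 0.272 and 0.232 with the inhibitor. Chains of a class are not replicates and share libraries, so no test was made of the gap.

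**Figure D3:**
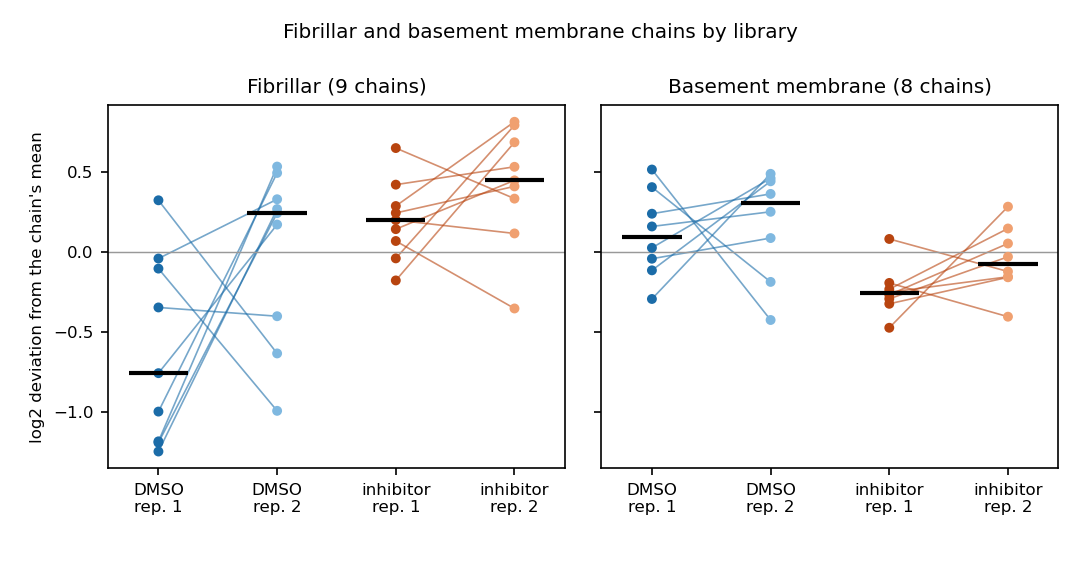
Log2 deviation of each fibrillar chain (left, 9 chains) and basement membrane chain (right, 8 chains) from its own mean over the 4 libraries; lines join the replicates of a group and black bars are medians. Fibrillar medians run from -0.76 in DMSO replicate 1 to 0.45 in inhibitor replicate 2, and basement membrane medians from 0.31 in DMSO replicate 2 to -0.26 in inhibitor replicate 1.

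Type VI collagen forms beaded microfilaments next to basement membranes. It had lower values with the inhibitor in 5 of 5 tested chains, where 6810 of all 13810 genes had lower values. The median log2 fold change of these chains was -0.23. Col6a1, its most abundant chain, had 1174 and 1720 reads with DMSO and 1087 and 1345 with the inhibitor (log2 fold change -0.23 ± 0.21, limma adjusted p = 0.678). Col6a2 had 674 and 714 against 398 and 538 (-0.56 ± 0.25, SE; adjusted p = 0.345). The groups overlapped for Col6a1 and not for Col6a2. Col6a3, the largest chain of the common type VI trimer, had 147 and 320 reads with DMSO and 320 and 146 with the inhibitor, so each group held a high and a low library and the log2 fold change was -0.0057. The ratio of Col6a1 to Col6a3 per kilobase accordingly ran from 9.28 to 25.2. Col6a5 did not overlap (226 and 194 against 149 and 151 reads, log2 fold change -0.42 ± 0.39), and Col6a4 had 0 and 109 reads against 18.2 and 38.8.

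In type VIII, Col8a2 had 15548 and 16902 normalised reads with DMSO and 13689 and 16328 with the inhibitor. Its log2 fold change of -0.12 ± 0.12 (SE) had the narrowest interval of all chains, -0.37 to 0.13 (limma adjusted p = 0.713). Col8a1 had 193 and 229 reads with DMSO and 283 and 492 with the inhibitor, without overlap, and a log2 fold change of 0.76 ± 0.36 (interval -0.016 to 1.54, adjusted p = 0.370).

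The fibril-associated collagens with interrupted triple helices (FACIT), which coat fibrils, had no common direction, with 3 positive and 2 negative log2 fold changes among 5 tested. Col12a1 had 153 and 280 reads with DMSO and 116 and 72.4 with the inhibitor, and the lowest log2 fold change of all chains (-0.99 ± 0.46, SE, limma adjusted p = 0.353). Col20a1 had 413 and 377 against 355 and 214 (-0.48 ± 0.33, adjusted p = 0.580). In both genes the groups did not overlap and inhibitor replicate 2 was lowest. Col14a1 (94.5 and 37.7 against 188 and 66.1 reads), Col16a1 (124 and 216 against 155 and 271) and Col9a3 (98.4 and 26.8 against 79.3 and 52.5) overlapped. The differences between replicates in these 3 genes were as wide as those between groups.

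Col7a1, which builds the anchoring fibrils below basal keratinocytes and other stratified epithelia, had 474 and 276 reads with DMSO and 204 and 266 with the inhibitor. The groups did not overlap, though DMSO replicate 2 and inhibitor replicate 2 differed by little (log2 fold change -0.58 ± 0.36, SE, limma adjusted p = 0.510). Markers of basal cells summed to 4240 and 3252 reads with DMSO and 774 and 2641 with the inhibitor. Col7a1 and this sum were both highest in DMSO replicate 1 and lowest in inhibitor replicate 1. Krt15 and Krt5 had their extremes in the same libraries. Ngfr was highest in DMSO replicate 2 (165 reads) and Trp63 in inhibitor replicate 2 (362). The part of basal cells in the values of Col7a1 was not tested. Col23a1, a transmembrane collagen, had 1713 and 1058 reads against 1195 and 779 (-0.47 ± 0.25, adjusted p = 0.433). Col26a1 had 718 and 460 against 594 and 600, and its groups overlapped. Col28a1, related to type VI, had 48.7 and 54.5 reads with DMSO and 79.3 and 181 with the inhibitor (0.93 ± 0.53, adjusted p = 0.470), without overlap.

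Below the floor lay 10 chains, for which no test was made. Col19a1 and Col24a1 were at 0 in all 4 libraries. Col2a1, the main collagen of cartilage, had 0 in both DMSO libraries and 21.0 reads in each inhibitor library. The highest value in any library was 38.0 for Col25a1, 33.6 for Col6a6, 28.7 for Col9a2 and 22.8 for Col22a1. It was 21.0 for Col13a1, 12.6 for Col9a1 and 10.5 for Col10a1. The chains nearest the floor had means of 20.6 (Col6a6) below it and 41.5 (Col6a4) above it.

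Genes that make, process or bind collagen were read from 6 lists. Of 24 tested genes of procollagen folding, modification and export, 1 passed in limma's test over all genes and was higher with the inhibitor, and none was lower, where 1.36% of all genes were called higher and 0.427% lower; 17 log2 fold changes were negative (median -0.20). That gene was Mia3, whose product TANGO1 loads bulky procollagen into transport carriers at the endoplasmic reticulum. Mia3 had 2902 and 2311 reads with DMSO and 3957 and 4812 with the inhibitor, and rose by 0.75 ± 0.15 on the log2 scale (SE; limma adjusted p = 0.0270). Both inhibitor libraries lay above both DMSO libraries. Its call ended without inhibitor replicate 1 (log2 fold change 0.89), without inhibitor replicate 2 (0.61) and in the edgeR fit (adjusted p = 0.128). The call held with DESeq2 (adjusted p = 0.000714), without DMSO replicate 1 (0.91) and without DMSO replicate 2 (0.58). P4hb, the protein disulfide isomerase that is also a subunit of prolyl 4-hydroxylase, had the next smallest p in the list. It had 20173 and 18054 reads against 14724 and 14132 (-0.40 ± 0.11, SE, limma adjusted p = 0.0821); it passed without DMSO replicate 2 (-0.48, adjusted p = 0.0258) and with DESeq2 (adjusted p = 0.00199).

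In the 5 other lists no gene passed limma's test over all genes. Of 8 tested processing and cross-linking genes, the 2 of smallest p were the lysyl oxidase relatives Loxl3 (-0.76, adjusted p = 0.490) and Loxl2 (0.76, adjusted p = 0.685). The 14 fibril-associated matrix genes had a median log2 fold change of 0.29 with 10 positive. Of these, Postn, which binds type I collagen, had 0 and 172 reads with DMSO and 303 and 252 with the inhibitor (adjusted p = 0.200, and 0.00149 without DMSO replicate 2). Tnxb, a tenascin, had 64.3 and 129 reads against 237 and 212 (adjusted p = 0.289). Postn, Tnxb and Col3a1 thus shared their lowest library, DMSO replicate 1. Postn and Tnxb were named for their small p, and the other tested genes of the list were divided. Bgn, Ogn, Prelp, Eln and Mfap4 were also lowest there, while Dcn, Fmod, Fn1, Sparc, Tnc, Fbn1 and Fbln1 were not.

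The 14 tested basement membrane partners had a median of -0.10. The laminin chains Lamb3, with 2074 and 1324 reads against 1089 and 960 (limma adjusted p = 0.147), and Lamb2, with 4701 and 4998 against 3929 and 3698 (adjusted p = 0.201), had the smallest p. Lamb3 passed without DMSO replicate 2 (adjusted p = 0.00909). Among 8 tested receptors these were Ddr2, a kinase that binds fibrillar collagen (55.6 and 43.6 against 133 and 138 reads, adjusted p = 0.332), and the integrin Itga1 (adjusted p = 0.380; 0.0258 without DMSO replicate 2). Among 5 breakdown genes they were the protease inhibitors Timp2 (-0.45, adjusted p = 0.200) and Timp3 (0.29, adjusted p = 0.354).

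Some marker lists of other cell types shared their lowest library, DMSO replicate 1, with the type I and III chains, and others did not. The 9 smooth muscle markers summed to 1984 and 5296 reads with DMSO and 4308 and 3100 with the inhibitor, and the 8 leukocyte markers to 190 and 792 against 638 and 489. The 8 endothelial markers summed to 2699 and 7226 reads with DMSO and 2826 and 3554 with the inhibitor. All 3 sums were lowest in DMSO replicate 1, the library with the lowest Col1a1, Col1a2 and Col3a1, and highest in DMSO replicate 2. The endothelial sum of inhibitor replicate 1 lay near that of DMSO replicate 1, unlike the type I and III chains, and the most abundant endothelial marker, Kdr, was highest in DMSO replicate 1. The fibroblast markers without Ces1d and Npnt came to 458 and 735 reads with DMSO and 688 and 935 with the inhibitor, also lowest in DMSO replicate 1. This trimming was chosen after the values were seen, because Ces1d held most of the sum. Npnt was the next most abundant gene of the list. The tested members of the trimmed list differed. Pdgfrb, Pdgfra and Mfap4 were lowest in DMSO replicate 1, the last 2 with means near the floor (29.5 and 29.7 reads). Dcn was lowest in DMSO replicate 2 and Pi16 was highest in DMSO replicate 1. With all 12, the sum was 37806 and 34668 against 32091 and 31418 reads, highest in DMSO replicate 1. The 7 pericyte markers summed to 1017 and 1449 against 1115 and 1097 reads, also lowest in DMSO replicate 1 and highest in DMSO replicate 2. They were led by Notch3, Postn and Cspg4, of which Notch3 was lowest in inhibitor replicate 2. The 5 mesothelial markers summed to 1641 and 1142 against 715 and 815 reads, highest in DMSO replicate 1 and led by Msln, Upk1b and Upk3b. Of 4 tested, 1 (Msln) was called lower (limma adjusted p = 0.0381), where 0.427% of all genes were. Msln passed with DESeq2 (adjusted p = 0.0040) and not with edgeR (adjusted p = 0.191). The log2 fold change was positive in 3 of the 4. Upk3b (0.78) and Lrrn4 (0.52) were highest in inhibitor replicate 1. Cartilage markers, with Acan and Matn1 at 0, summed to 148 to 248 reads, nerve markers, with Sox10 at 0, to 203 to 328, and red cell markers to at most 18.2. The part of these cells in the collagen values was not tested.

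**Figure D4:**
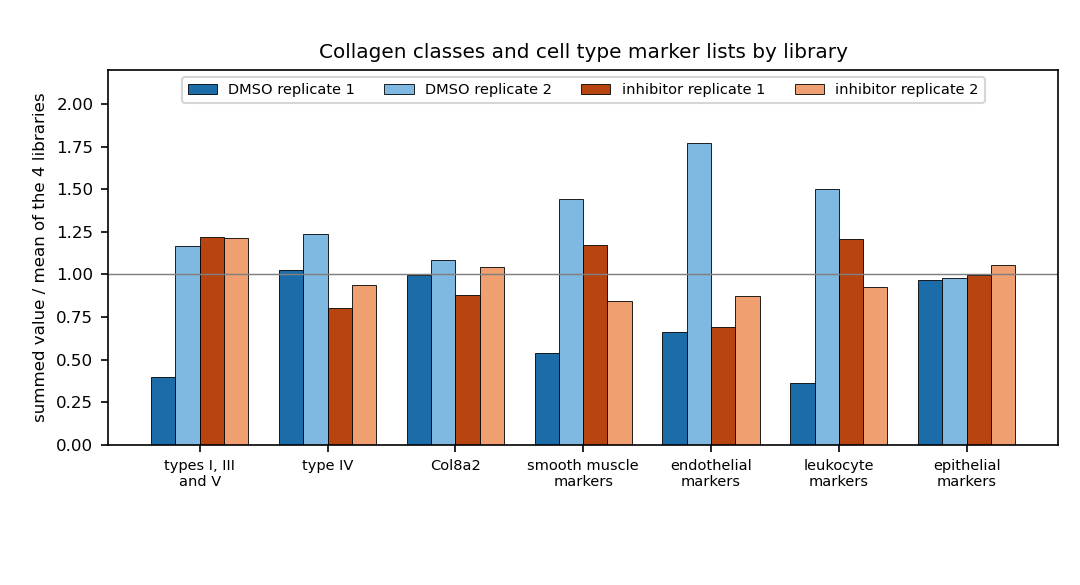
Summed normalised reads of collagen types I, III and V, type IV, Col8a2 and 4 marker lists in each library, divided by the mean of the 4 libraries, with 1 bar for each library. In DMSO replicate 1 types I, III and V stood at 0.400 of their mean, smooth muscle markers at 0.540, endothelial markers at 0.662 and leukocyte markers at 0.360. Type IV stood at 1.02, Col8a2 at 0.996 and epithelial markers at 0.970 there. Other marker lists are not plotted. Among them, the fibroblast and mesothelial sums were highest in DMSO replicate 1 and the pericyte sum was lowest there.

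Type IV and Col8a2 did not share the low value of DMSO replicate 1. Summed reads of types I, III and V were 843 and 2463 with DMSO and 2570 and 2564 with the inhibitor, a 3.05-fold range over the libraries. Type IV chains summed to 12085 and 14612 against 9438 and 11037 reads, a 1.55-fold range, and Col8a2 had a 1.23-fold range.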

How the data were processed

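RNA of 2 DMSO and 2 inhibitor samples, all with HDM, was extracted with TRIzol and sequenced from NEBNext Ultra II Directional libraries, per the labels' protocols. HOMER, DESeq2 and build mm10 are listed, without versions or roles, per the submitters' processing notes. Aligner, filters and the strand setting of the counting are not given, so reads of overlapping or antisense genes are uncertain. The deposited signal values are read counts divided by 1 size factor per library: all values of a column (100%) were whole multiples of 1 step within 0.01. For DMSO replicate 2 the step (0.991) lies too near 1 to be told from rounding by its size alone. Recovered reads served edgeR 4.0.16, DESeq2 1.42.0, TMM scaling and the counting intervals (exact binomial, counting error only; PCR copies are not independent).

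Values were tested as log2(value + 25.8) with limma 3.58.1 (R 4.3.3; trended variance, 11.2 prior degrees of freedom; group as the only term), for genes with a mean of at least 25.8 (13810), Benjamini-Hochberg adjusted. The fit was tested on simulated data. Folds are on this scale, which makes those of low genes smaller. Levels per kilobase used the exon union of GENCODE M21 (GRCm38, the same build as mm10; 43 of 43 chains matched), and promoters came from RefSeq GRCm38.p6. Nothing given says that the samples came from separate mice, so p-values measure the spread between these samples, which may be technical. Members, classes and lists were chosen with earlier results of these data known. Every tested chain was named, and from the other lists each gene that passed, or else the 2 of smallest p, and the 3 most abundant markers of each stromal list. Genes named beyond that (Tcf21, Lum, Pdgfra, Pdgfrb, Acan, Matn1, Sox10, Aqp5, Sftpc, Sftpb, Abca3 and P4hb) were named after their values were seen. So were Pi16, Scgb3a2, Cyp2f2, Ccdc39, Krt5, Krt15, Trp63, Ngfr and Lrrn4. The same holds for the fibril-associated genes Bgn, Ogn, Prelp, Eln, Mfap4, Fmod, Fn1, Sparc, Tnc, Fbn1 and Fbln1. Alternatives were a replicate block, changed pseudocounts, floors and scalings, no intensity trend, edgeR, DESeq2, each library left out in turn (a lone sample is assumed to vary like the other group) and narrower classes. Tables and figures used Python 3.11.15, pandas 2.3.3, numpy 2.4.6, scipy 1.17.1 and matplotlib 3.10.9.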

Additional observations from a re-analysis of the deposited data

How the results depend on the processing

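No chain other than Col6a4 (0.29 with a pseudocount of 6.46) changed direction under the 11 alternatives that kept all libraries. Without each library in turn, 19 of 33 chains kept their direction and 14 did not, with log2 fold changes from -0.21 to 1.51 for Col1a2, -0.24 to 1.25 for Col5a2, -0.17 to 0.79 for Col11a2, -0.56 to 0.38 for Col4a5, -0.14 to 0.059 for Col4a3, -0.51 to 0.080 for Col15a1, -0.58 to 0.20 for Col18a1, -0.50 to 0.041 for Col6a1, -0.51 to 0.50 for Col6a3, -1.34 to 1.05 for Col6a4, -0.24 to 0.010 for Col8a2, -0.075 to 0.64 for Col16a1, -0.45 to 0.79 for Col9a3 and -0.26 to 0.36 for Col26a1. The fibrillar median then lay between 0.22 and 1.05, the basement membrane median between -0.52 and -0.17, and their gap between 0.74 and 1.37. Chains called came to 0 to 3 higher and 0 to 2 lower, and all genes called to 0 to 616 higher and 5 to 179 lower, against 188 and 59; the cause was not tested.

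Whether same-numbered samples were paired is not given. The correlation of their deviations from the group means was 0.073 (2 pairs), a value over all genes tested that does not settle it. With the replicate number as a block, 469 genes were called higher and 205 lower, among them 1 chain higher (Col3a1, adjusted p = 0.00634) and 1 lower (Col4a2, adjusted p = 0.00967). With no floor 51 genes were called higher and 13 lower, without the intensity trend 0 and 0 (at an unadjusted p under 0.05, 3 chains, Col11a1, Col12a1 and Col4a4, where 10.3% of all genes had one), with edgeR 7 and 3, and with DESeq2 378 and 170, among them 1 chain lower; the cause was not tested. With 2 samples a group, the 95% interval of Col1a1 spans 0.094 to 1.81 on the log2 scale.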
